A study of Homo sapiens with 6 samples.

Results

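The serpins, a family of proteins named after serine protease inhibitors, were examined in SCC90 cells, an established cell line from an HPV-positive oropharyngeal squamous cell carcinoma, after silencing of DeltaNp63. Members were all rows of the deposited gene table whose Ensembl identifier maps to a protein-coding gene with a SERPIN symbol made of a clade letter and a number, which gave 35 of the 40488 genes in the table. Another 6 serpin-named rows are pseudogenes and were left out. The siDNp63 group consisted of 3 libraries of SCC90 cells transfected with an siRNA against DeltaNp63, the isoform group of the TP63 gene that lacks the N-terminal transactivation domain. The siCTRL group consisted of 3 libraries of the same line transfected with a scrambled siRNA. RNA was taken in both groups 72 h after transfection. The labels give an siRNA concentration of 10 nM and the methods of the study another one. Both groups are a single line in culture, and the labels do not say whether the replicates are separate cultures, so p-values reflect only how these libraries vary, and that variation may be technical.

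Most serpins trap a protease by a bait: the protease cuts an exposed loop near the C-terminus of the serpin, the loop inserts into the body of the serpin, and the enzyme stays bound in a distorted, inactive form. Clade B serpins lack a classical signal peptide and act largely inside cells or after release, whereas most of the other clades are secreted and control coagulation, fibrinolysis, complement and inflammation in plasma and tissue. Some members, such as SERPINB5, SERPINF1 and SERPINH1, do not inhibit proteases at all. In stratified epithelia such as skin and oral mucosa, clade B serpins are abundant in keratinocytes, where they restrain cathepsins, kallikreins and plasminogen activators.

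The 35 serpins comprised 11 genes of clade A, 13 of clade B, 1 each of clades C, D, G and H, 3 of clade E, and 2 each of clades F and I. Of the clade B genes, 10 lie in a row on chromosome 18 (GRCh38, 63476958 to 64019779, a span of 543 kb in band 18q21). By gene start the order is SERPINB5, SERPINB12, SERPINB13, SERPINB4, SERPINB11, SERPINB3, SERPINB7, SERPINB2, SERPINB10 and SERPINB8. The start of SERPINB11 before SERPINB3 rests on 1 of its 9 annotated transcripts, and by gene midpoint SERPINB3 comes before SERPINB11. The other 3 clade B genes, SERPINB1, SERPINB9 and SERPINB6, lie on chromosome 6, and 10 of the 11 clade A genes on chromosome 14. SERPINB3 and SERPINB4 are read from the minus strand of chromosome 18 and the other 8 genes of the row from the plus strand.

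SERPINB3 and SERPINB4, which encode the squamous cell carcinoma antigens 1 and 2, are near copies, and their sequences are shown first because they decide which reads can be told apart. The coding sequences in GENCODE v44 each have 1173 bases and differ at 56 of them (95.2% identity). Of the 1124 stretches of 50 bases in the coding sequence, 260 (23.1%) are identical in the 2 genes, and the longest identical run has 129 bases. The stretch of 120 bases that differs most is given here, from base 952 to base 1071 of the coding sequence (codons 318 to 357), 5′ to 3′, with the 18 differing bases in capitals. This stretch runs into the bait loop.
SERPINB3: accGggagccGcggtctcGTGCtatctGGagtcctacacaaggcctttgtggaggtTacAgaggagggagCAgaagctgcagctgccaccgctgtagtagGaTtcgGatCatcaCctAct
SERPINB4: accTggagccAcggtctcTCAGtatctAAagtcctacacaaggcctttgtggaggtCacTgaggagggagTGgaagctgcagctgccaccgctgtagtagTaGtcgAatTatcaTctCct

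Over all annotated transcripts of each gene, read on either strand, 53.7% of the 50-base stretches of SERPINB3 also occur in another gene: 24.2% in SERPINB4 and 33.6% in SERPINB11, whose exons overlap those of SERPINB3 on the opposite strand. The overlap with SERPINB11 covers 620 exonic bases (chromosome 18, 63655357 to 63655976), which is 36.3% of the exonic bases of SERPINB3, and comes from 1 of the 9 annotated transcripts of SERPINB11. The library kit kept strand, but the paper states that the counting program kallisto was run with default options and names no strand option. Reads from this stretch therefore cannot be assigned to SERPINB3 or SERPINB11 with certainty. The shared portion was 20.5% for SERPINB4, 14.9% for SERPINB11, 18.3% for SERPINB2 (from a read-through transcript over SERPINB2 and SERPINB10), 7.3% for SERPINB8 (with HMSD), 26.8% for SERPINE3 (with INTS6 on the opposite strand) and at most 4.5% for the other serpins tested.

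Sequences before the transcription starts of the 18q21 genes were taken from RefSeq (GRCh38.p14), whose promoter windows of 250 bases before to 50 after each start matched 27 of the 35 serpins by symbol. The letters TGANTCA were searched for because several of these genes moved together. N was any base and both strands were read (the motif is its own reverse complement). With C or G at N the letters are the core recognised by AP-1 factors, and with A or T they depart from it. They occurred in a window of 6 of the 8 genes of the row that have one (SERPINB5, SERPINB12, SERPINB13, SERPINB7, SERPINB2 and SERPINB8), in 2 of 19 other serpins (SERPINE3 and SERPINI2) and in 2558 of 27305 genes in all (9.4%). Among these 6 are SERPINB13, which fell, and SERPINB12, which had too few counts to be tested, so the match was not limited to genes that rose. SERPINB11, the gene of the row that rose most, and SERPINB10 had no window. The 200 bases of SERPINB8 that hold its matches lie within annotated exons. In SERPINB5, SERPINB12 and SERPINB2 every match has A or T at N. SERPINB13, SERPINB7 and SERPINB8 each hold a match with C or G there. A match describes the letters in the window and is not a measured binding site. For SERPINB5, SERPINB7 and SERPINB2, 200 bases that lie from 210 to 11 bases before a start and outside annotated exons are given here, plus strand, with each match in capitals. They were picked among the genes that rose, and the SERPINB12 window also lies outside exons but is not printed. The 3 stretches printed come from chr18:63476748-63476947, chr18:63777571-63777770 and chr18:63887495-63887694.
SERPINB5: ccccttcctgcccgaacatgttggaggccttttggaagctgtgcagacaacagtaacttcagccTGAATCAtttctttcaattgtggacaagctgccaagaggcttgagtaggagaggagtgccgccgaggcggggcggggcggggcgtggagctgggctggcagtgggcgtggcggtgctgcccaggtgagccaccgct
SERPINB7: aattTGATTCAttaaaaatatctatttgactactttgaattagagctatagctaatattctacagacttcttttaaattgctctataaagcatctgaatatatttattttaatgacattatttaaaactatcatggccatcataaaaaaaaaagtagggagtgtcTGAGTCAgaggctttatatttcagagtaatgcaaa
SERPINB2: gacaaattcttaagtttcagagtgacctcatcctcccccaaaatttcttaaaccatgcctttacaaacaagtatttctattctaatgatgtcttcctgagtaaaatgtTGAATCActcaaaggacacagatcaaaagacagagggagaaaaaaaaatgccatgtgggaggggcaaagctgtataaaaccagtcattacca

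The match lies 146 bases before the start in SERPINB5 and 102 bases before it in SERPINB2. In SERPINB7 the matches lie 206 and 45 bases before the start used for the printed stretch. SERPINB7 has other annotated starts. Its window from 63775168 holds matches at -154 and -39, and its window from 63752807 holds none. Which start these cells use was not tested. The windows of SERPINB3 and SERPINB4 hold no TGANTCA and are themselves 98.7% identical. The letters TATAAA occurred in 11 of 41 serpin windows (26.8%) and in 11.5% of the 35116 windows of all genes. The decamer that is a half-site for p53 family proteins occurred in 2 of the 41 serpin windows (SERPINA3 and SERPINB12, 4.9%) and in 6.6% of all windows. A full site joins 2 such decamers and was not searched for.

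The libraries held between 35716277 and 52598831 expected counts. TP63, the gene targeted, fell to 15136 ± 576 normalised counts in siDNp63 cells, against 43408 ± 976 in siCTRL cells (SD, n = 3 each; log2 fold change -1.52 ± 0.04 (SE), adjusted p = 7.59e-07). The value covers all TP63 isoforms. The summed level of 8 epithelial markers was 3887 to 4469 TPM, the level per transcript length and library, in siDNp63 and 3403 to 3591 TPM in siCTRL libraries, and it did not overlap between the groups. That of 8 leukocyte markers was 11.7 to 12.6 TPM in siDNp63 and 14.5 to 16.0 TPM in siCTRL, and that of 8 fibroblast markers 5.99 to 9.18 TPM in siDNp63 and 8.86 to 10.9 TPM in siCTRL, with HLA-DRA and PDGFRB at 0 in every library. The 8 endothelial markers summed to 12.8 to 15.0 TPM in siDNp63 and 3.54 to 4.79 TPM in siCTRL, a rise carried by KDR, PECAM1 and VWF, while CDH5 and CLDN5 stayed at or below 0.112 TPM in every library. The part of these shifts in the serpin values was not tested. All libraries are labelled as a single line in culture, and the marker sums are given as a description of these libraries. In such bulk samples a change in the share of cells that express a gene and a change in RNA per cell cannot be told apart. The siDNp63 library of replicate 1 stood apart from the other 2 on the second principal component.

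In siDNp63 cells 6 of the 8 tested serpins of the 18q21 row rose (SERPINB5, SERPINB11, SERPINB3, SERPINB7, SERPINB2 and SERPINB8) and SERPINB13 fell. Outside the row SERPINA1 rose, and 4 serpins fell. Among these 4 were SERPINE2, which inhibits thrombin and urokinase, the tissue plasminogen activator inhibitor SERPINI1 and the secreted SERPINF1. Of the 35 serpins, 20 had enough counts to be tested: 7 were higher in siDNp63 cells and 5 lower at an adjusted p under 0.05, and 8 did not pass. Among all 17257 genes tested, 18.4% were higher and 15.2% lower by this rule. SERPINA1 passed the filter on low counts only through the siDNp63 libraries, where it is high. With at least 10 counts asked of every library it dropped out, leaving 6 serpins higher, and 4 higher by the stricter rule given next. With a log2 fold change beyond 1 in size added to the rule, 5 serpins were higher (SERPINA1, SERPINB11, SERPINB7, SERPINB3 and SERPINB2) and 2 lower (SERPINF1 among them), beside 2.35% of all genes tested higher and 1.71% lower. In 14 of the 20 serpins tested the siDNp63 and siCTRL libraries had no overlap in values, beside 49.4% of all genes tested. The median size of the log2 fold change was 0.53 over the 20 serpins and 0.21 over all genes.

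**Figure D1:**
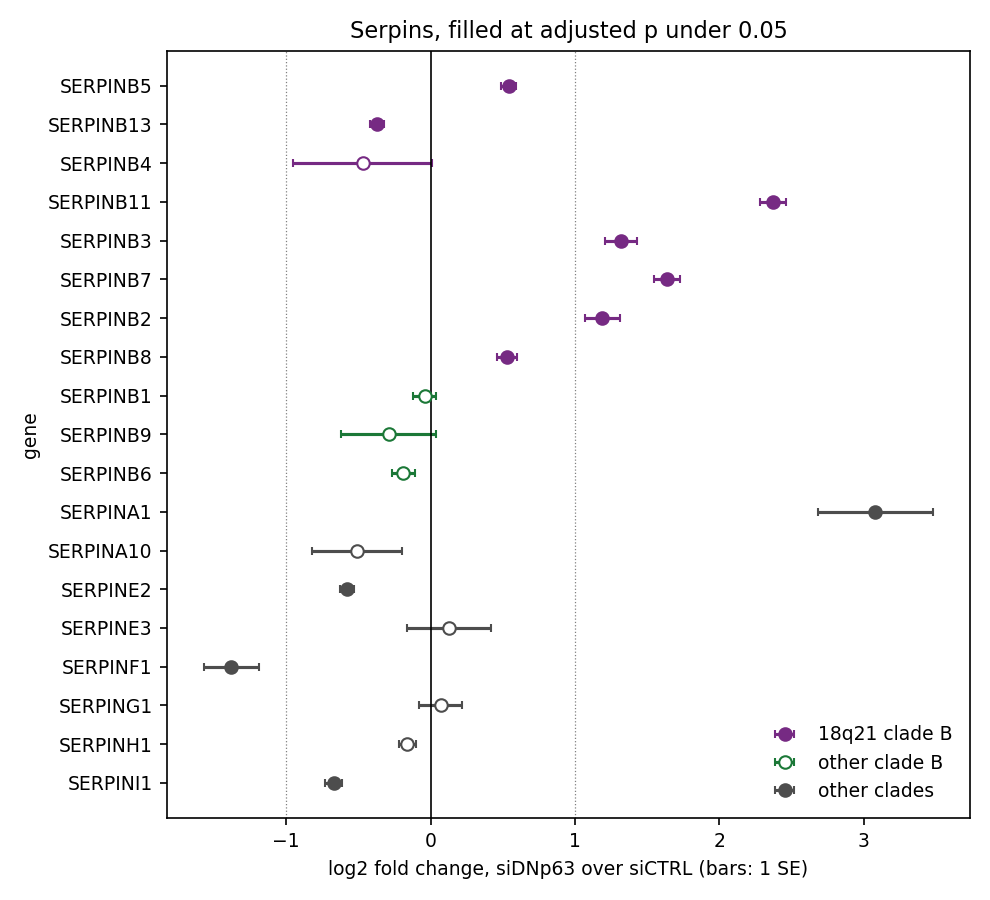
Log2 fold change of siDNp63 over siCTRL for 19 of the 20 serpins tested (points, with bars of 1 SE), coloured by gene set, with filled points at an adjusted p under 0.05 and dotted lines at a log2 fold change of 1 in either direction. SERPINA1 (3.08) and SERPINB11 (2.37) lie farthest to the right, SERPINF1 (-1.38) lies farthest to the left, and the 3 clade B serpins of chromosome 6 lie near 0.

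SERPINB11, the gene for epipin, whose human form is not known to inhibit a protease, changed most within the row of 18q21. It had 2608, 2435 and 2224 normalised counts in the siDNp63 libraries and 508, 489 and 409 in the siCTRL libraries. Every siDNp63 library was far above every siCTRL library. The mean was 2423 ± 192 in siDNp63 and 468 ± 52.4 in siCTRL (SD, n = 3 each). The log2 fold change was 2.37 ± 0.09 (SE, adjusted p = 3.25e-06), or 5.16-fold. Per transcript length the level was 58.4 ± 3.04 TPM in siDNp63 and 11.9 ± 2.15 TPM in siCTRL.

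SERPINB7 encodes megsin, an inhibitor of kallikreins in the outer epidermis whose loss in people causes a palmoplantar keratosis. It had 755, 756 and 668 normalised counts in siDNp63 and 224, 239 and 235 in siCTRL. The groups were well apart, with the lowest siDNp63 library above the highest siCTRL library. The log2 fold change was 1.64 ± 0.09 (SE, adjusted p = 8.98e-06), or 3.12-fold, and no 50-base stretch of this gene occurs in another gene.

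SERPINB3, an inhibitor of papain-like cysteine proteases such as cathepsin L, had 209, 235 and 225 normalised counts in siDNp63 and 86.8, 92.6 and 87.9 in siCTRL. The libraries within each group lay close together and the groups did not overlap (log2 fold change 1.32 ± 0.11 (SE), adjusted p = 9.09e-05, 2.50-fold). SERPINB4, an inhibitor of chymotrypsin-like proteases such as cathepsin G and mast cell chymase, was close to the detection limit at 24.3, 11.1 and 21 normalised counts in siDNp63 and 15.6, 18.7 and 43.9 in siCTRL. Its groups overlapped and it did not pass the test (log2 fold change -0.47 ± 0.48 (SE), adjusted p = 0.49).

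Since the split of reads between these near copies depends on the assignment, their sum was tested as 1 row. The sum was 233, 246 and 246 normalised counts in siDNp63 and 102, 111 and 132 in siCTRL, again without overlap. Its log2 fold change was 1.07 ± 0.13 (SE, adjusted p = 0.000469), or 2.10-fold. The ratio of SERPINB3 to SERPINB4 expected counts was 8.53, 21.8 and 10.5 in siDNp63 and 5.40, 4.97 and 2.00 in siCTRL, so it was higher in every siDNp63 library but varied widely within both groups. The sum still contains the stretch that SERPINB3 shares with the antisense SERPINB11, and a rise of SERPINB3 cannot be told apart from reads of SERPINB11 there.

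SERPINB2 encodes plasminogen activator inhibitor 2, which blocks urokinase. It had 342, 371 and 374 normalised counts in siDNp63 and 142, 152 and 184 in siCTRL. No library of one group reached the other group, and the rise was 2.28-fold (log2 fold change 1.19 ± 0.12 (SE), adjusted p = 0.000219). SERPINB8, an inhibitor of the proprotein convertase furin, had 675, 626 and 636 normalised counts in siDNp63 and 420, 462 and 456 in siCTRL. It rose by less, 1.45-fold, also without overlap (log2 fold change 0.53 ± 0.07 (SE), adjusted p = 0.00113).

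The 2 most abundant serpins moved in opposite directions. SERPINB5 encodes maspin, a non-inhibitory serpin first described as a tumour suppressor of mammary epithelium, and it had 19031, 17385 and 17690 normalised counts in siDNp63 and 12313, 12101 and 12905 in siCTRL. All 3 siDNp63 libraries were higher, with a log2 fold change of 0.54 ± 0.05 (SE, adjusted p = 0.000105), or 1.45-fold. SERPINB13 encodes headpin, a keratinocyte inhibitor of cathepsins K and L, and it had 11006, 10015 and 10128 normalised counts in siDNp63 and 13674, 13142 and 13406 in siCTRL. It was the only gene of the row that fell, lower in all 3 siDNp63 libraries (log2 fold change -0.37 ± 0.05 (SE), adjusted p = 0.000624, 1.29-fold lower).

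The ratio of SERPINB5 to SERPINB13, in TPM, was 2.46, 2.50 and 2.66 in siDNp63 and 1.25, 1.33 and 1.37 in siCTRL. The ratio was higher in each siDNp63 library (exact permutation test over the libraries, two-sided p = 0.10, the smallest that 3 against 3 allows, adjusted p = 0.125 over the 5 such tests made here). For SERPINB11 over SERPINB13 the ratio was 0.310, 0.351 and 0.335 in siDNp63 and 0.0458, 0.0601 and 0.0403 in siCTRL. SERPINB12, known from keratinocytes, and SERPINB10, known from blood-forming cells, had too few counts to be tested.

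**Figure D2:**
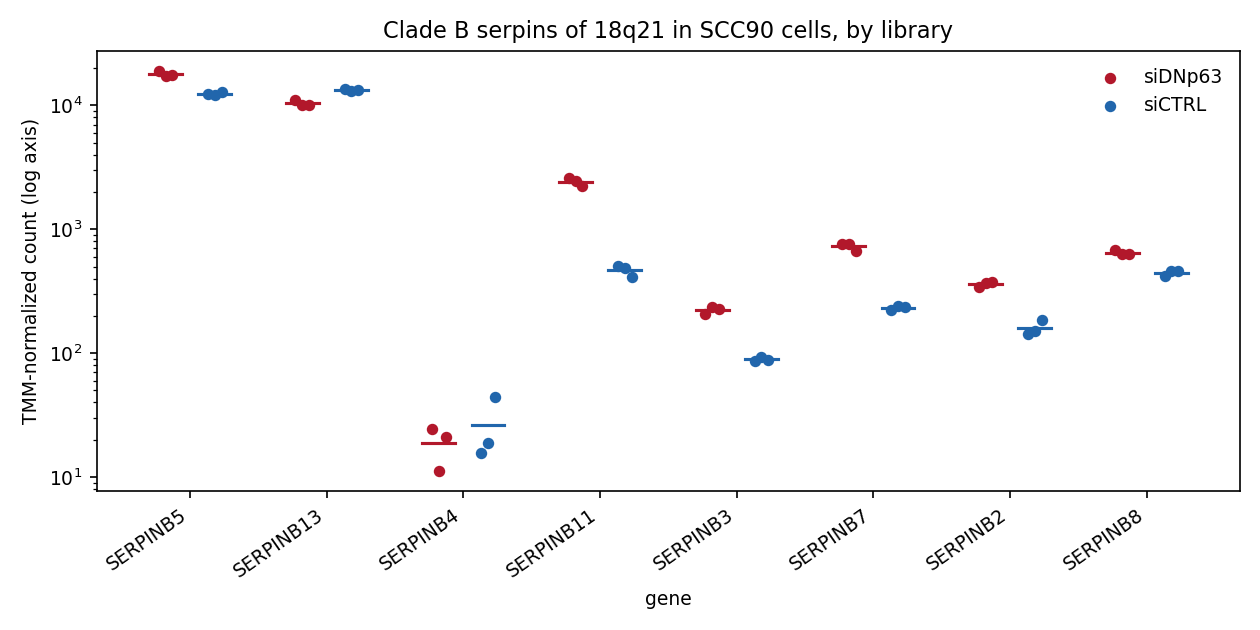
TMM-normalised counts (log axis) of the 8 tested clade B serpins of 18q21 in each library, in chromosomal order of gene start, with siDNp63 left of siCTRL and a line at the mean of each group's 3 libraries. SERPINB13 is the 1 gene with all siDNp63 libraries below the siCTRL libraries, and SERPINB4 the 1 gene whose groups overlap.

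The genes around the row were looked at in the same fit. Of the 6 other protein-coding genes within 1 Mb of the row, 4 were higher in siDNp63, 1 lower and 1 did not pass, with a median log2 fold change of 0.36, while 18.4% of all genes tested were higher and 15.2% lower. VPS4B, an ATPase of membrane scission that lies next to SERPINB5, had a log2 fold change of 0.63 ± 0.04 (SE, adjusted p = 3.70e-05), and PHLPP1, a phosphatase acting on AKT, 0.61 ± 0.05 (SE, adjusted p = 5.60e-05). ZCCHC2 was at 0.53 ± 0.04 (SE, adjusted p = 8.22e-05). BCL2, the inhibitor of apoptosis, was the 1 that fell, with a log2 fold change of -0.52 ± 0.04 (SE, adjusted p = 8.44e-05). HMSD, which lies between SERPINB10 and SERPINB8 and shares exonic bases with SERPINB8, did not pass (0.11 ± 0.18, adjusted p = 0.677). The changes of SERPINB11, SERPINB7, SERPINB3 and SERPINB2 were each larger in size than that of any of these 6 genes, a comparison of fitted values without a test.

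**Figure D3:**
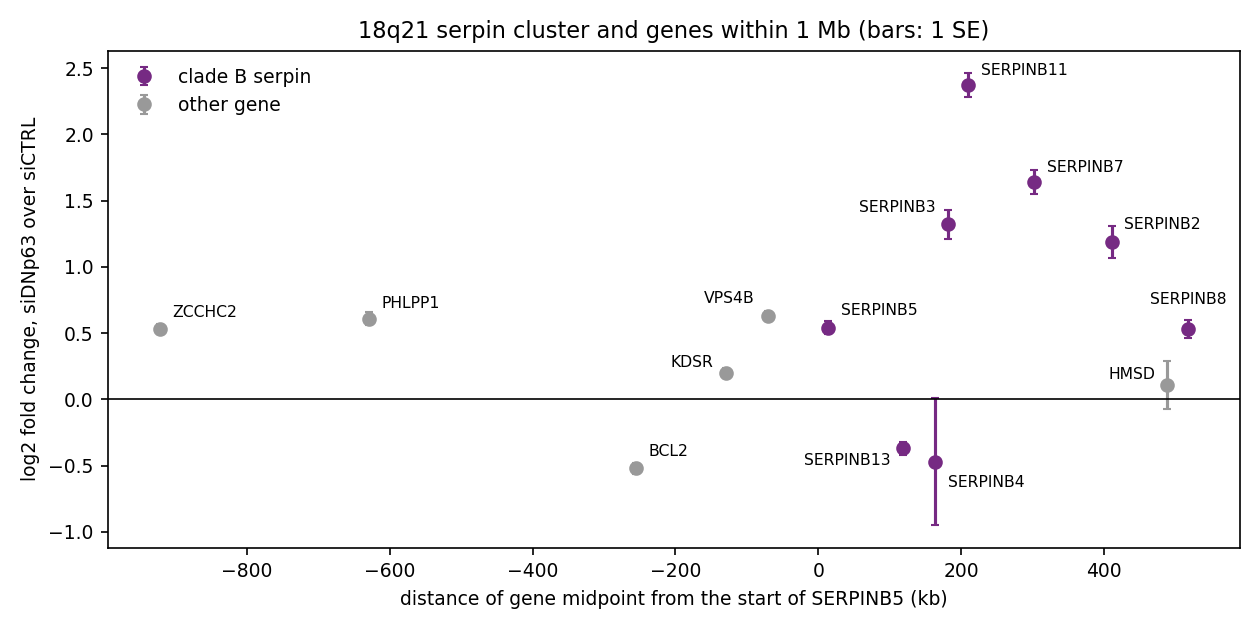
Log2 fold change of siDNp63 over siCTRL (points, bars of 1 SE) for the tested clade B serpins of 18q21 and the other protein-coding genes within 1 Mb, by the distance of each gene's midpoint from the start of SERPINB5 in kb. The 4 genes above a log2 fold change of 1 (SERPINB3, SERPINB11, SERPINB7 and SERPINB2) lie in the middle of the row, between SERPINB4 and HMSD.

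The 3 clade B serpins of chromosome 6 did not pass the test. SERPINB1, an inhibitor of neutrophil elastase and cathepsin G, had 695, 688 and 657 normalised counts in siDNp63 and 775, 653 and 661 in siCTRL, and these overlapped (log2 fold change -0.04 ± 0.08 (SE), adjusted p = 0.777). SERPINB6, an intracellular inhibitor of trypsin-like proteases and cathepsin G, had 511, 497 and 437 in siDNp63 and 531, 571 and 549 in siCTRL. These did not overlap, and all siDNp63 libraries were lower. The difference passed 0.05 neither before nor after adjustment (-0.19 ± 0.08 (SE), unadjusted p = 0.0533 and adjusted p = 0.12 from edgeR). SERPINB9, the granzyme B inhibitor with which cytotoxic cells and some tumours protect themselves, was low at 12.8, 12.0 and 15.3 in siDNp63 and 21.7, 15.6 and 11.3 in siCTRL, and did not pass (-0.29 ± 0.33 (SE), adjusted p = 0.545).

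Outside the row, SERPINE2 and SERPINI1, which act on plasminogen activators, were lower in siDNp63 cells. SERPINE2, protease nexin 1, inhibits thrombin, urokinase and other serine proteases at the cell surface. It had 1384, 1337 and 1260 normalised counts in siDNp63 and 1961, 1997 and 1970 in siCTRL. The siCTRL libraries lay within a narrow range above all siDNp63 libraries (log2 fold change -0.58 ± 0.05 (SE), adjusted p = 8.80e-05, 1.49-fold lower). SERPINI1, neuroserpin, a tissue plasminogen activator inhibitor known from neurons, had 1774, 1682 and 1635 in siDNp63 and 2581, 2634 and 2886 in siCTRL, again without overlap (-0.67 ± 0.06 (SE), adjusted p = 8.80e-05, 1.59-fold lower).

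SERPINE3, a clade E gene without an established target, did not pass. It had 23.0, 28.2 and 29.6 normalised counts in siDNp63 and 16.5, 29.1 and 29.3 in siCTRL, with overlap (0.13 ± 0.29 (SE), adjusted p = 0.772).

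SERPINF1 encodes pigment epithelium-derived factor, a secreted non-inhibitory serpin known to restrain vessel growth. It had 39.7, 61.6 and 62.0 normalised counts in siDNp63 and 153, 132 and 145 in siCTRL. The siDNp63 libraries were all far lower, with a log2 fold change of -1.38 ± 0.19 (SE, adjusted p = 0.00108), or 2.61-fold lower. SERPINH1 encodes HSP47, the collagen chaperone of the endoplasmic reticulum, and was the most abundant serpin outside 18q21, with 6611, 7627 and 7405 normalised counts in siDNp63 and 8287, 8140 and 7738 in siCTRL. The groups did not overlap, but the difference did not pass (-0.16 ± 0.06 (SE), adjusted p = 0.075), while scaling by library totals gave -0.24 at an adjusted p of 0.0207.

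SERPINA1, alpha-1-antitrypsin, the plasma inhibitor of neutrophil elastase made mainly by hepatocytes, had the largest fold change of the family, at a low level. It had 52.5, 67.6 and 64.9 normalised counts in siDNp63 and 10.4, 8.32 and 2.25 in siCTRL. The groups were far apart, with a log2 fold change of 3.08 ± 0.40 (SE, adjusted p = 0.000747), or 8.45-fold. The gene passed the filter on low counts only through the siDNp63 libraries, and the fitted fold rests on 12, 8 and 1.7 expected counts in siCTRL. On the log2(TPM + 1) scale the difference was 1.27. All 8 hepatocyte markers, ALB and APOA1 included, were under 1 TPM in every library, and their sum was 0.554 to 0.635 TPM in siDNp63 and 0.658 to 0.741 TPM in siCTRL.

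SERPINA10, the protein Z-dependent inhibitor of factor Xa, had 11.5, 12.8 and 21 normalised counts in siDNp63 and 20.8, 20.8 and 23.7 in siCTRL. It did not pass (log2 fold change -0.51 ± 0.31 (SE), adjusted p = 0.249). SERPING1, the C1 inhibitor of the complement and kinin systems, had 94.7, 79.6 and 95.4 in siDNp63 and 78.1, 85.3 and 93.5 in siCTRL and also did not pass (0.07 ± 0.15 (SE), adjusted p = 0.763).

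**Figure D4:**
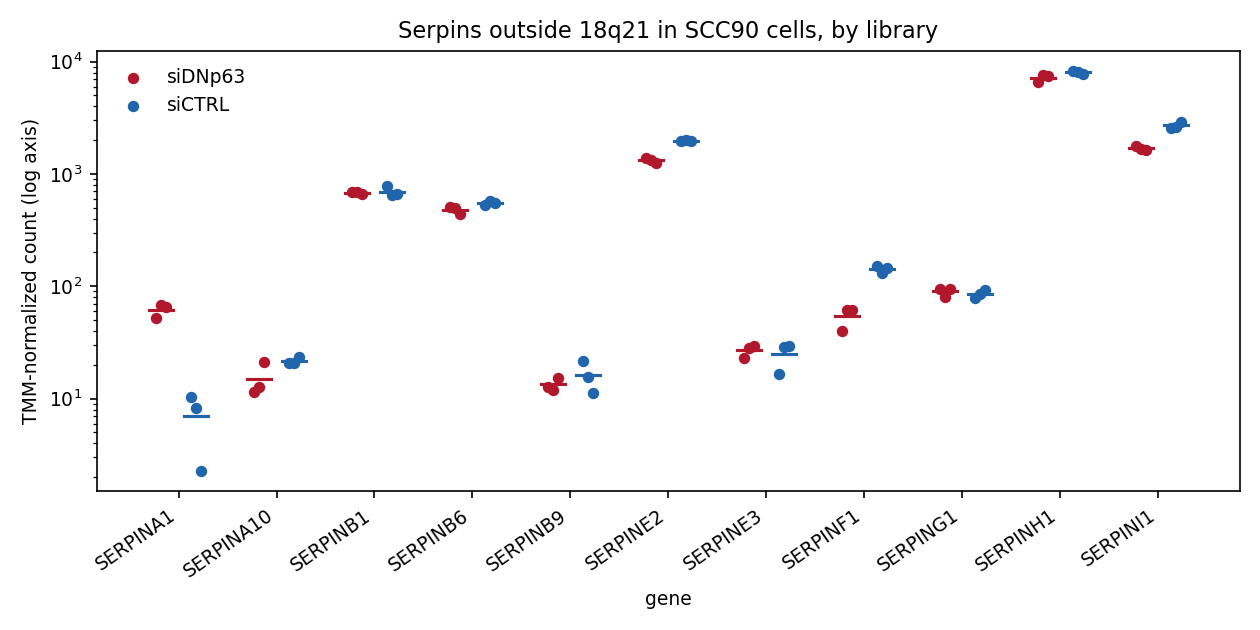
TMM-normalised counts (log axis) of 11 of the 12 tested serpins outside 18q21 in each library, with siDNp63 left of siCTRL and a line at the mean of each group's 3 libraries. SERPINA1 is the 1 gene with every siDNp63 library clearly above siCTRL, and SERPINE2, SERPINF1 and SERPINI1 have every siDNp63 library well below siCTRL.

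The remaining 15 serpins did not pass the filter on low counts, 9 of them of clade A. In no library was a count assigned to SERPINA2, SERPINA4, SERPINA5, SERPINA6, SERPINA7 or SERPINA12, 6 genes that include the plasma carriers of cortisol and thyroxine. A count of 0 allows up to 3 counts, or 0.0570 to 0.0840 CPM depending on the library, for counting error only. The other 9 (SERPINA3, SERPINA9, SERPINA11, SERPINB10, SERPINB12, SERPINC1, SERPIND1, SERPINF2 and SERPINI2) had at most 18 expected counts in a library. The liver-derived coagulation inhibitors antithrombin (SERPINC1) and heparin cofactor II (SERPIND1) are among them.

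Set beside each other, the row of 18q21 and the other serpins differed in how many genes moved which way. Of the 8 tested genes of the row, 6 were higher, 1 was lower and 1 did not pass, with a median log2 fold change of 0.86 and a range from -0.47 to 2.37. Of the 12 tested serpins elsewhere, 1 was higher (SERPINA1), 4 were lower and 7 did not pass, with a median of -0.24 and a range from -1.38 to 3.08. Among all genes tested, 18.4% were higher and 15.2% lower, with a median of -0.02. Of the 6 other protein-coding genes within 1 Mb of the row, 4 were higher and 1 lower. The difference between the medians of the row and of the other serpins was 1.10. It was 1.14, 1.11 and 0.98 when taken in each siDNp63 library against the mean of siCTRL. Without a filter on low counts it was 0.73. Genes of a family are not replicates, so no test was made on these counts.

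In amount, SERPINB5 and SERPINB13 outweighed all other serpins in both groups. SERPINB5 had 448 ± 43.3 TPM in siDNp63 and 323 ± 18.4 TPM in siCTRL, and SERPINB13 had 177 ± 20.2 TPM in siDNp63 and 247 ± 23.7 TPM in siCTRL (SD, n = 3 each). SERPINH1 came next, with 151 ± 9.86 TPM in siDNp63 and 180 ± 7.81 TPM in siCTRL. In siDNp63 cells SERPINB11 followed at 58.4 TPM, then SERPINI1 at 42.1 TPM and SERPINE2 at 32.7 TPM. In siCTRL cells SERPINI1 (72.2 TPM) and SERPINE2 (47.2 TPM) stood above SERPINB1 (21.2 TPM), and SERPINB11 was below all of these at 11.9 TPM.

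The summed level of all 35 serpins was 1048, 939 and 985 TPM in siDNp63 and 999, 914 and 933 TPM in siCTRL. These sums overlapped (exact permutation test, two-sided p = 0.40). The 18q21 genes made up 75.8%, 71.1% and 72.9% of that sum in siDNp63 and 64.9%, 62.1% and 63.7% in siCTRL. Each siDNp63 library had the higher share, a difference of 9.72 percentage points (exact permutation test, two-sided p = 0.10, the smallest possible, adjusted p = 0.125). Without SERPINB5 and SERPINB13, the row summed to 103, 102 and 101 TPM in siDNp63 and 33.6, 34.7 and 31.9 TPM in siCTRL, most of it SERPINB11 in siDNp63. The serpins outside the row summed to 254, 271 and 267 TPM in siDNp63 and 351, 347 and 339 TPM in siCTRL, lower in every siDNp63 library.

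**Figure D5:**
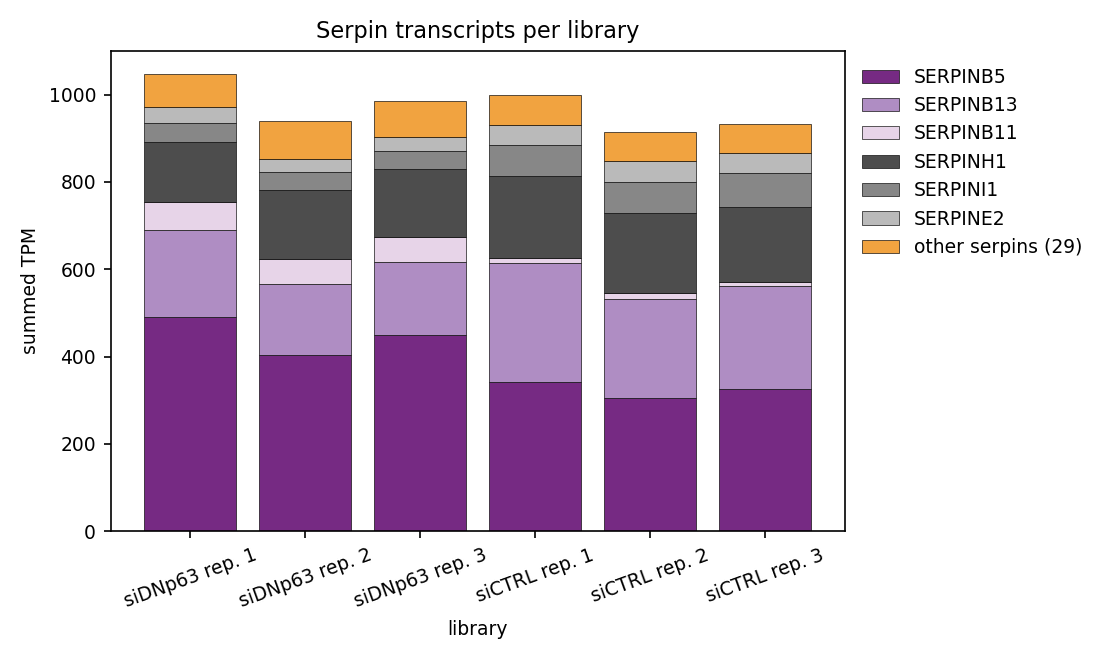
Summed TPM of the serpins in each library, stacked from SERPINB5 at the bottom through SERPINB13, SERPINB11, SERPINH1, SERPINI1 and SERPINE2 to the other 29 serpins, with the siDNp63 libraries left of the siCTRL libraries. The stacks reach similar heights (939 to 1048 TPM in siDNp63, 914 to 999 TPM in siCTRL), and the SERPINB11 layer is visibly thicker in siDNp63.

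Genes that serpins act on or with were counted by lists drawn up for what serpins inhibit, bind or resemble. Of 37 genes of plasminogen activation and membrane-anchored serine proteases, 26 were tested, 8 were higher, 4 lower and 14 did not pass (median log2 fold change 0.08). That is 30.8% higher and 15.4% lower, beside 18.4% and 15.2% of all genes tested. Among the higher ones were TMPRSS11D, an airway trypsin-like protease (1.5 ± 0.15 (SE), adjusted p = 0.000203), the thrombin receptor F2R (0.99 ± 0.10, adjusted p = 0.000187), the trypsin-responsive receptor F2RL1 (0.48 ± 0.04, adjusted p = 6.79e-05) and tissue factor F3 (0.68 ± 0.09, adjusted p = 0.000724). The 4 lower ones, named after their values were seen, were the tissue plasminogen activator PLAT (-0.77 ± 0.25, adjusted p = 0.0461), the urokinase receptor PLAUR (-0.47 ± 0.12, adjusted p = 0.0198), HTRA1 (-0.32 ± 0.06, adjusted p = 0.00424) and PCSK7 (-0.22 ± 0.05, adjusted p = 0.0103).

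Of 26 lysosomal and granule proteases, 14 were tested, 5 were higher (35.7%), 1 lower (7.14%) and 8 did not pass (median 0.04). All genes tested had 18.4% higher and 15.2% lower. The cysteine proteases LGMN (0.95 ± 0.04), CTSV (0.76 ± 0.04) and CTSC (0.69 ± 0.04) rose, and CTSZ rose by less (0.22 ± 0.04). Each had an adjusted p of 0.00327 or lower. The 1 that fell was CTSK (-0.27 ± 0.07, adjusted p = 0.0275), and CTSL had a log2 fold change of -0.02 ± 0.05 and did not pass (adjusted p = 0.794). Both cathepsins are targets of SERPINB13 and were named after their values were seen.

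Of 49 protease inhibitors that are not serpins, 24 were tested, 10 were higher (41.7%), 1 lower (4.17%) and 13 did not pass, with a median of 0.21. Over all genes tested the shares were 18.4% higher and 15.2% lower. A2ML1, an alpha-2-macroglobulin-like inhibitor of keratinocytes, rose 5.15-fold (2.36 ± 0.12 (SE), adjusted p = 8.16e-06) and SPINK5, the kallikrein inhibitor LEKTI, 1.97-fold (0.98 ± 0.04, adjusted p = 4.39e-06). The calpain inhibitor CAST (0.72 ± 0.04, adjusted p = 1.15e-05) and SPINT1, an inhibitor of matriptase (0.57 ± 0.06, adjusted p = 0.000369), also rose.

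Of 22 receptors and cofactors of serpins, 18 were tested, 3 were higher, 3 lower and 12 did not pass (median -0.03). These are 16.7% in each direction, near the 18.4% higher and 15.2% lower of all genes tested. VLDLR (0.83 ± 0.04, adjusted p = 6.82e-06), a receptor of the family that clears serpin-protease complexes, rose. HS6ST1, which sulfates heparan sulfate, fell (-0.68 ± 0.08, adjusted p = 0.000505), as did SORL1 (-0.28 ± 0.04, adjusted p = 0.00108). Of 23 tested partners of the SERPINH1 product in collagen folding, 5 were higher (21.7%), 2 lower (8.70%) and 16 did not pass (median -0.01). The higher share is near the 18.4% of all genes tested, and the lower share is below their 15.2%. P3H2, a prolyl 3-hydroxylase, rose most among those named (1.61 ± 0.09, adjusted p = 1.32e-05), P4HA1 (0.21 ± 0.05, adjusted p = 0.0121) and KDELR1 (0.20 ± 0.04, adjusted p = 0.00378) rose slightly, and FKBP14 fell slightly (-0.30 ± 0.07, adjusted p = 0.0126).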

How the data were processed

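Poly(A) RNA of 6 SCC90 samples was sequenced from a stranded kit. The authors demultiplexed with bcl2fastq 2.17.1.14 and quantified with kallisto 0.46.2 against hg38, per the submitters' processing notes, with no annotation release stated in the sources at hand. The deposited table holds, per gene and library, estimated counts (expected counts, not normalised) and TPM values, both made by the authors. Libraries held 35716277 to 52598831 expected counts.

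Expected counts were rounded and tested with edgeR 4.0.16 (quasi-likelihood, TMM scaling, filterByExpr with a minimum count of 10) over all 17257 genes that passed, with Benjamini-Hochberg adjustment over them, group as the only term and thresholds of 0.05 and a log2 fold change of 1. A standard error is the log2 fold change divided by the root of its F statistic. Normalised counts are counts scaled to the mean effective library. Library shares and ratios used an exact permutation test over samples. Alternatives were DESeq2 1.42.0, limma 3.58.1 (voom, and log2 TPM with pseudocounts of 1 and 0.1), other scalings, filters and thresholds, a replicate block, each library left out, and SERPINB3 and SERPINB4 as 1 row. The code was tested on simulated counts.

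Coordinates and exons come from GENCODE v44 (GRCh38), promoter windows from RefSeq. All serpins past the filter are named, and from each list up to 4 genes with the smallest p among those past 0.05, with exceptions stated and 2 genes not reported here. Members, lists and tests were chosen with earlier results of these data known.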

Additional observations from a re-analysis of the deposited data

How the results depend on the processing

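Of the 12 serpins past an adjusted p of 0.05, 11 kept direction and call in every alternative that gave a value, and 1 that fell did not pass a threshold of 0.005. The counts were 6 to 7 higher and 4 to 7 lower over the alternatives, and 4 to 5 higher past both thresholds. The 2 lower past both thresholds became 1 with limma on log2(TPM + 1) and 1 at a threshold of 0.005. The difference between the medians of the 18q21 row and the other serpins, 1.10, was 0.73 without a filter on low counts, 1.01 with limma on log2(TPM + 1) and 1.31 with SERPINB3 and SERPINB4 as 1 row, and ranged from 1.00 (without siCTRL replicate 1) to 1.25 (without siCTRL replicate 3) when a library was left out. SERPINH1 passed 0.05 with library totals, with both TPM scales and without siDNp63 replicate 2 (adjusted p from 0.0207 to 0.0452), and SERPINB6 with library totals (0.0307). The causes were not tested, except that each filter or summed row changes which genes enter a median. SERPINA1 gave no value with at least 10 counts asked of every library.

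With library totals as scaling, all genes had a median log2 fold change of -0.11, and 36.1% of all calls were higher, against 54.7% with TMM. Of the calls 42.0% were higher with limma on log2(TPM + 1). The 7 serpins higher stayed 7 under each. Same-numbered libraries did not deviate together from their group means (correlations -0.01, 0.02 and 0.03). Each mean is of only 3 libraries and siDNp63 replicate 1 stood apart. These correlations therefore cannot decide whether the numbers pair libraries. With the replicate block, 7 serpins were higher and 5 lower, the medians differed by 1.08, the sum of SERPINB3 and SERPINB4 had a log2 fold change of 1.07, and 2777 genes were higher and 2175 lower. Depth limits SERPINB4, SERPINB9, SERPINA10, SERPINE3 and the siCTRL value of SERPINA1 most, through their low counts.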
